A study of Mus musculus with 6 samples.

Results

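Genes of the oligodendrocyte precursor and early astrocyte lineages were examined in embryonic mouse whole brain. The rule named 10 genes, Olig1, Olig2, Sox10, Pdgfra and Cspg4 for the oligodendrocyte lineage and Nfia, Nfib, Gfap, Aldh1l1 and Aqp4 for the astrocyte lineage, and took every RefSeq transcript ID with one of these symbols. It found 10 IDs of 8 genes among the 23485 IDs of the series, and 6 of those IDs, 1 each for Olig1, Olig2, Sox10, Pdgfra, Cspg4 and Gfap, had enough counts to be tested. Nfia and Aldh1l1 matched no ID and are not analysed here.

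The samples were wild-type C57BL/6 embryos at E15.5 with no treatment named in the labels, 3 female and 3 male, sexed by whether the gonad held testicular cords. RNA of several embryos was combined in each sample, so each value below is an average over a pool. The libraries were made from total RNA with a stranded kit, and the study asked which transcripts differ between the sexes. Here the levels of the glial lineage genes at this stage are described first and the sex comparison second.

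Glial cells of the brain arise from the same ventricular progenitors (radial glia) that first produce neurons. Oligodendrocyte precursors leave the ventral zones of the forebrain and spinal cord, divide in response to platelet-derived growth factor (PDGF) through the receptor Pdgfra, and later make myelin. In the astrocyte lineage, the nuclear factor I proteins Nfia and Nfib act early in the switch to gliogenesis, while Gfap (an intermediate filament), Aldh1l1 (a folate enzyme) and Aqp4 (a water channel) mark astrocytes as they mature. Several of these genes are also used outside the brain or by other cells. Sox10 is expressed in neural crest and Schwann cells, Cspg4 (the NG2 proteoglycan) in pericytes and cartilage, and Pdgfra in meningeal and other fibroblasts.

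Total counts per sample ranged from 4908565 to 10294443, and the limit that a count of 0 allows (3 counts) was at most 0.599 CPM in a sample, on the scale used here and for counting error only. CPM are counts scaled to a common library total, here the total times a TMM factor of 0.940 to 1.03. Xist had 1021 to 1428 CPM in female samples and 0.414 to 1.07 CPM in male samples, and the Y-linked Ddx3y and Kdm5d had at least 185 and 61.6 CPM in males and at most 0.200 and 0.102 CPM in females, as the labels say. Genes expected in brain were abundant, with neuronal Tubb3 and Stmn2 at mean levels of 844 and 289 CPM per kb of transcript, and radial glial Vim and Fabp7 at 783 and 370 CPM per kb. Genes of other tissues were as high or higher. The fibroblast and bone collagens Col1a2, Col3a1 and Col1a1 had mean levels of 1324, 1320.0 and 1149 CPM per kb, above every neuron and radial glia ID tested, and the muscle actin Actc1 had 816 CPM per kb. Whether they came from tissue around the brain was not tested.

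How many RefSeq IDs a gene has went together with how many counts it received. Among protein-coding genes, 89.5% of the 12805 with 1 RefSeq ID were listed, and 46.6% had a mean of at least 100 counts. The corresponding shares were 79.4% and 14.7% for 4012 genes with 2 IDs, 73.5% and 10.8% for 1876 genes with 3 IDs, and 67.4% and 10.7% for 2338 genes with 4 or more. Neuronal genes named after their values were seen gave both low and high examples. Snap25, a synaptic vesicle fusion protein with 5 RefSeq IDs, had 0.517 and 0.461 CPM on the 2 IDs listed, and Dcx, a microtubule protein of migrating neurons with 4 IDs, had 3.98 CPM, while Tubb3 with 1 ID had 1577 CPM. Map2, a microtubule protein of dendrites with 3 IDs, had 571 CPM on its listed ID, above the 381 CPM of Elavl3 with 1 ID, so a gene of several IDs could also have a high count. How reads shared by several transcripts were counted is not stated in the sources used here, and its part in these levels was not tested.

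The same division ran through the glial genes. Olig1, Olig2, Sox10 and Cspg4 have 1 RefSeq ID each, and these 4 were the genes with 10 or more counts in every sample. Pdgfra has 5 RefSeq IDs, of which 3 were listed. Nfib (5 IDs), Gfap (2 IDs) and Aqp4 (9 IDs) had 1 ID listed each, and Nfia and Aldh1l1 have 3 and 2. For the genes with several IDs, low expression and reads left uncounted because IDs share them cannot be told apart.

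**Figure D1:**
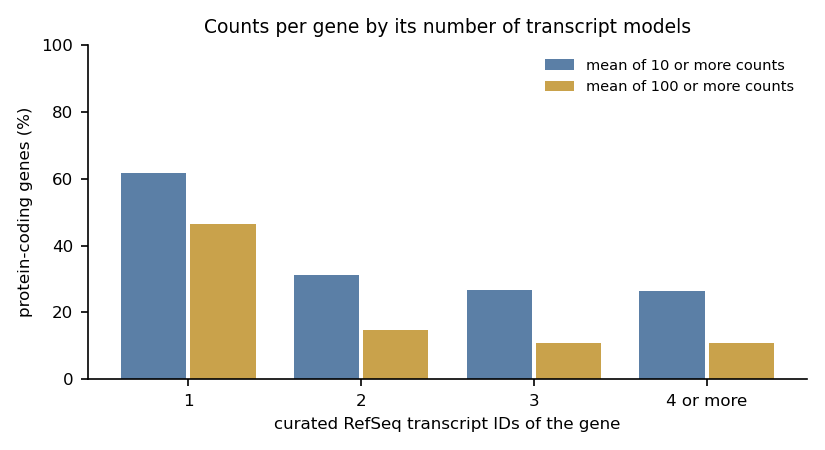
Percentage of protein-coding genes (vertical axis) with a mean of at least 10 counts (blue) and at least 100 counts (yellow) over the 6 samples, by the number of RefSeq IDs of the gene (horizontal axis). The bars fall from 61.8% and 46.6% for genes with 1 ID to 26.4% and 10.7% for genes with 4 or more.

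Olig2 and Olig1 encode basic helix-loop-helix transcription factors that specify and mature oligodendrocytes, and Olig2 also acts in ventral progenitors that give rise to motor neurons. They are neighbours on chromosome 16 (NCBIM37, plus strand), with Olig2 at 91225795 to 91228922, Olig1 at 91270014 to 91272184 and 41091 bases between them. Olig2 (NM_016967, 2437 nt) had 14.6, 23.2 and 18.9 CPM in female samples 1, 2 and 3 and 21.2, 21.7 and 18.0 CPM in male samples 1, 2 and 3, from 90 to 205 counts. The lowest and the highest value were both in females, and the sexes overlapped. Olig1 (NM_016968, 2171 nt) had 14.6, 14.2 and 19.9 CPM in females and 30.1, 20.5 and 22.0 CPM in males, from 71 to 291 counts. Every male sample was above every female sample for Olig1, with male sample 1 the highest, but female sample 3 and male sample 2 lay close together.

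Sox10, an HMG-box factor needed for myelin gene expression, had 22.8, 17.2 and 28.1 CPM in female samples and 26.9, 24.5 and 21.9 CPM in male samples (NM_011437, 2713 nt, chromosome 15, 78985343 to 78994920, minus strand, 86 to 275 counts). The 3 males lay inside the range of the 3 females. Neural crest and Schwann cell genes were measured beside it because they share Sox10. Of the 9 genes of that list with an ID, 4 had counts enough to be tested. Erbb3, the neuregulin receptor of Schwann cell precursors, had 108 to 123 CPM, and Foxd3, a crest transcription factor, had 5.99 to 10.2 CPM over the 6 samples. The summed level of the list was 129 to 143 CPM in females and 133 to 138 CPM in males, and the part of such cells in the Sox10 counts was not tested.

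Cspg4, a membrane proteoglycan of oligodendrocyte precursors and pericytes, was the most abundant of the glial lineage genes. It had 179, 124 and 160 CPM in female samples 1, 2 and 3 and 124, 145 and 193 CPM in male samples 1, 2 and 3, from 622 to 1928 counts (NM_139001, 8050 nt, chromosome 9, 56712911 to 56747677, plus strand). The lowest values were those of male sample 1 and female sample 2, and the highest that of male sample 3, so the spread ran within each sex. Over the 6 samples the coefficient of variation was 18.4%, where counting alone would give 3.04%.

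Pdgfra, the receptor for PDGF-A on oligodendrocyte precursors, was counted on IDs that add up to few reads (chromosome 5, 75548316 to 75594229, plus strand). In female samples NM_001347719 received 11, 6 and 25 counts, and in male samples 12, 9 and 27. Female sample 3 and male sample 3 were the highest, and the sexes overlapped. NM_001083316 had 4 to 7 counts per sample, and NR_144636 had 0 to 2. Only the first of these IDs reached 10 counts in a sample and was tested.

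In the astrocyte lineage, Gfap (NM_010277, chromosome 11, 102748650 to 102762226, minus strand) received 6, 6 and 3 counts in the female pools, and 10, 7 and 10 in the male pools. Female sample 3 was at the limit of 3 counts, and the counting error alone would give a coefficient of variation of 41.0%, against 33.9% measured. Nfib (NM_001113209, chromosome 4, 81936077 to 82351654, minus strand) had 1 count in female sample 1, 2 counts in male sample 3 and 0 in the others. Aqp4 (NM_001308647) had 1 count in female sample 1 and 0 in the others. A level of Nfib or Aqp4 was not detectable at this depth on the IDs listed.

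**Figure D2:**
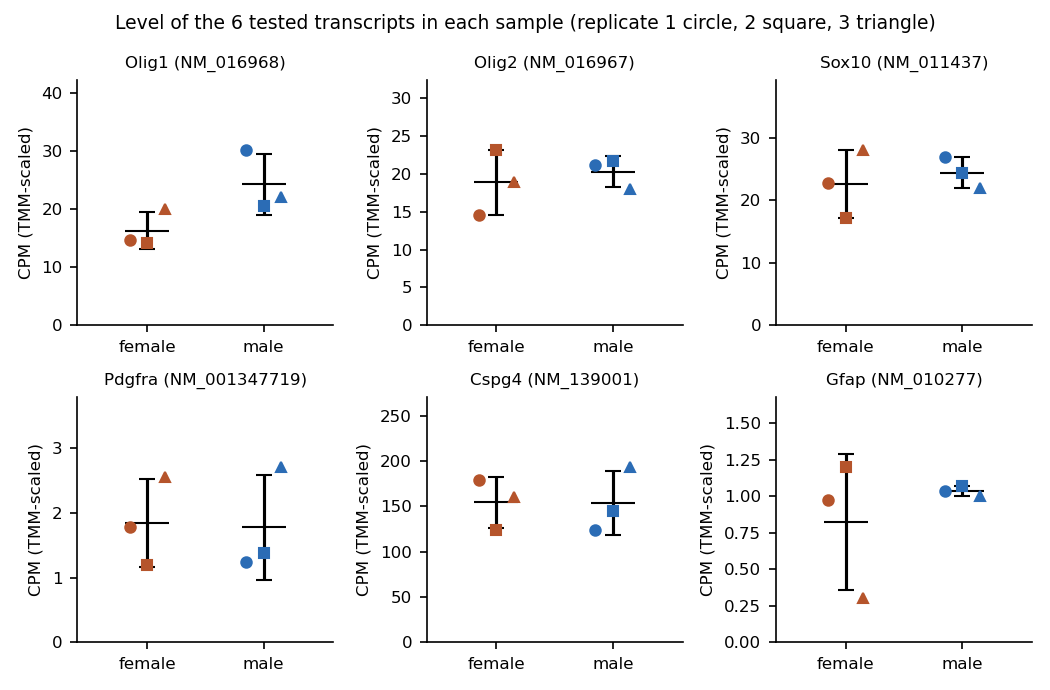
CPM of each tested glial lineage ID in the 6 samples, by sex, on a separate axis for each gene, with the mean and SD of each sex as bars. Male samples lie above female samples for Olig1, and the sexes overlap for Olig2, Sox10, Cspg4, Pdgfra and Gfap.

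The bases in front of 3 of these genes are shown to set the most abundant gene, a lineage-specifying factor and the marker of mature astrocytes side by side. Each is the 250 bases before the RefSeq start (GRCm38.p6, 5′ to 3′ on the gene's strand), another build than the NCBIM37 coordinates above. Capitals mark TTGGC, the half-site that nuclear factor I proteins such as Nfia and Nfib recognise, searched on both strands. The windows are chr16:91225300-91225549 (plus strand) for Olig2, chr9:56864854-56865103 (plus strand) for Cspg4 and chr11:102897201-102897450 (minus strand) for Gfap.
Olig2: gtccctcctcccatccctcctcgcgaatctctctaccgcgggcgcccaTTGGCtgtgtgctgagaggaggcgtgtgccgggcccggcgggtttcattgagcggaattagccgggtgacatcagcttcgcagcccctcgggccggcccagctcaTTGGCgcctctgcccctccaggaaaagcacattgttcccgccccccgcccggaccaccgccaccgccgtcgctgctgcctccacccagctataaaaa
Cspg4: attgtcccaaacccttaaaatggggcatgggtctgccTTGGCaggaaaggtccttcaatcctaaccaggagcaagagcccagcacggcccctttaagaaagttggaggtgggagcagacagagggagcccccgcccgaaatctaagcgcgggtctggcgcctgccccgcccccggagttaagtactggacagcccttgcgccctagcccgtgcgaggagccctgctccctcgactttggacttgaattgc
Gfap: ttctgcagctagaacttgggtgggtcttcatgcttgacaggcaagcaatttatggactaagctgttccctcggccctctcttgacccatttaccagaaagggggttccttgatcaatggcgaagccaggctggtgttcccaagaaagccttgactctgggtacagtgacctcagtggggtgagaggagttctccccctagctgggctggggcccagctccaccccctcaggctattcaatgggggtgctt
Olig2 had 2 matches, Cspg4 had 1, and Gfap had 0. Of 32851 promoters of the same length, 41.5% held this half-site, so a match is common. CAGCTG, an E-box that Olig and other basic helix-loop-helix proteins can bind, and ACAAAG, a SOX motif, were in 0 of the 3 windows, and 13.0% and 16.5% of all promoters held them on either strand. These matches are letters in a window and were not tied to any count.

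Levels of different genes were compared per length, as CPM per kb of transcript over all 6 samples. Cspg4 was highest at 19.2 CPM per kb ± 3.53 (SD, n = 6), followed by Olig1 at 9.31 ± 2.68, Sox10 at 8.69 ± 1.44 and Olig2 at 8.04 ± 1.27. Cspg4 was 2.06 times Olig1 and above it in 6 of 6 samples with no overlap of their ranges. The 3 transcription factors were not separated from each other beyond their spread. Olig1 was above Sox10 in 4 of 6 samples and Sox10 above Olig2 in 5 of 6, with ranges that overlapped. Gfap and Pdgfra NM_001347719 followed at 0.351 ± 0.119 and 0.275 ± 0.102 CPM per kb, with overlapping ranges. Olig2 was 22.9 times Gfap in level per kb, but Olig2 has 1 RefSeq ID and Gfap has 2. Over listed protein-coding genes, the median level was 6.13 CPM per kb with 1 ID and 0.245 CPM per kb with 2. The ratio therefore cannot tell expression from the number of IDs.

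Among the 9099 tested IDs of genes with 1 RefSeq ID, a comparison chosen after the effect of ID number was seen, the median level was 12.5 CPM per kb. Cspg4 stood at percentile 61.1 of these, Olig1 at 43.6, Sox10 at 41.9 and Olig2 at 40.3. Radial glia and neuron genes of 1 RefSeq ID had higher levels, with medians of 68.8 CPM per kb over 6 IDs and 182 CPM per kb over 4 IDs.

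Genes of earlier and later stages of the oligodendrocyte lineage were set beside these. Of 18 other precursor genes, 12 were tested. Sox8, a relative of Sox10, had a level of 15.2 CPM per kb, and Xylt1, a xylosyltransferase of proteoglycan synthesis, had 11.3 CPM per kb. Gpr17, a receptor of committed precursors named after its values were seen, had 3.73 CPM per kb. The 8 precursor IDs of genes with 1 RefSeq ID had a median of 5.63 CPM per kb, and the 5 myelin IDs of this kind had a median of 1.81 CPM per kb. Of 17 myelin and mature oligodendrocyte genes, 8 were tested. Cldn11, the tight junction protein of myelin and also of meninges, led them at 29.0 CPM per kb, followed by Mbp at 8.28 and Mog at 6.98, both structural proteins of the sheath. Cldn11 and Mog have 1 RefSeq ID each, but Mbp has 8, so its value on this ID is open to the limit given above for such genes.

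The astrocyte lineage was better covered by genes outside the named markers. Of 22 other astrocyte genes, 15 were tested, and 11 of them with 1 RefSeq ID had a median of 25.7 CPM per kb. Gja1, the connexin of astrocytes and radial glia, was highest at 149 CPM per kb, followed by Glul, glutamine synthetase, at 134, and Tnc, an extracellular glycoprotein with 5 RefSeq IDs, at 110. Many of these are expressed by radial glia too, as background, and Gja1 and Tnc also by connective tissue, so astrocytes and their progenitors were not separated by these levels. In bulk samples the number of cells of a type and the RNA per cell cannot be told apart. Among PDGF genes, Pdgfa, the ligand of Pdgfra, with 3 RefSeq IDs, had 22.4 CPM per kb and Pdgfb, the ligand that recruits pericytes, had 11.2.

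**Figure D3:**
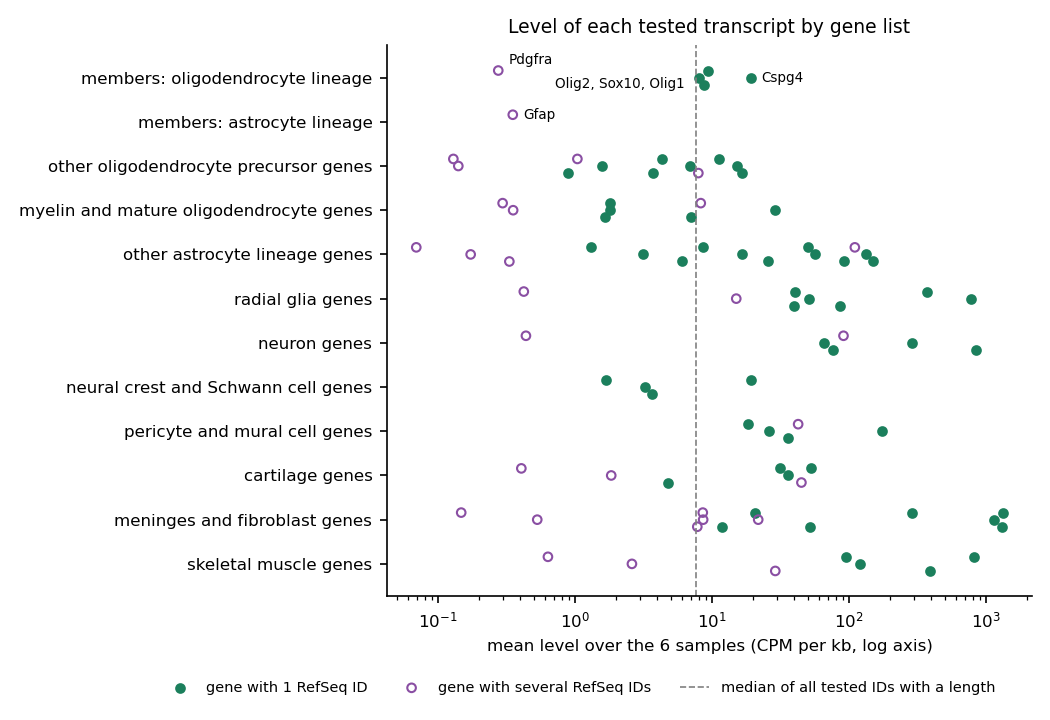
Mean level over the 6 samples (CPM per kb, log axis) of each tested ID in the glial lists and in lists of other cell types, with filled points for genes of 1 RefSeq ID, open points for genes of several, and the median of all tested IDs with a length (7.62 CPM per kb) as a dashed line. Olig1, Olig2 and Sox10 sit near that line, Cspg4 above it, and Pdgfra and Gfap among the open points at the low end.

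The glial lineage genes did not share one pattern over the samples. The 3 highest samples of Cspg4 were female 1, female 3 and male 3, with 1.16, 1.04 and 1.25 times its mean, and the 3 lowest had 0.806, 0.805 and 0.942 times. Pdgfra NM_001347719 had the same 3 samples highest, at 0.985, 1.41 and 1.49 times its mean, although female 1, with 11 counts, was not above that mean. Olig2 was highest in the other 3 samples, at 1.18, 1.08 and 1.11 times its mean in female 2, male 1 and male 2. Sox10 had its 3 highest values, 1.19, 1.14 and 1.04 times its mean, in female 3, male 1 and male 2, so it shared samples with both. The sum of 8 cartilage genes, in CPM, was 754, 490 and 741 in females and 340, 377 and 659 in males, with female 1, female 3 and male 3 again the highest. Fibroblast genes summed to 19223 to 23647 CPM in females and 17793 to 26100 CPM in males, highest in female 3, male 1 and male 3, and pericyte genes to 592 to 684 and 634 to 725 CPM. The part of cartilage, fibroblasts or pericytes in the Cspg4 and Pdgfra counts was not tested.

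The transcripts with a pattern most like Cspg4 over the 6 samples were Pkd1 (polycystin-1), Sync (syncoilin) and Fndc9, with root mean square differences of 0.037, 0.072 and 0.074 in centred log2 CPM, the closest of 8357 candidates. Pkd1 had 470, 304 and 403 CPM in females and 301, 361 and 477 CPM in males. For Gfap the closest of 8358 were 1700001L05Rik, Gm3636 and Bbs10, at 0.13, 0.15 and 0.16. Gfap had so few counts that its measured spread was below that of counting error.

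**Figure D4:**
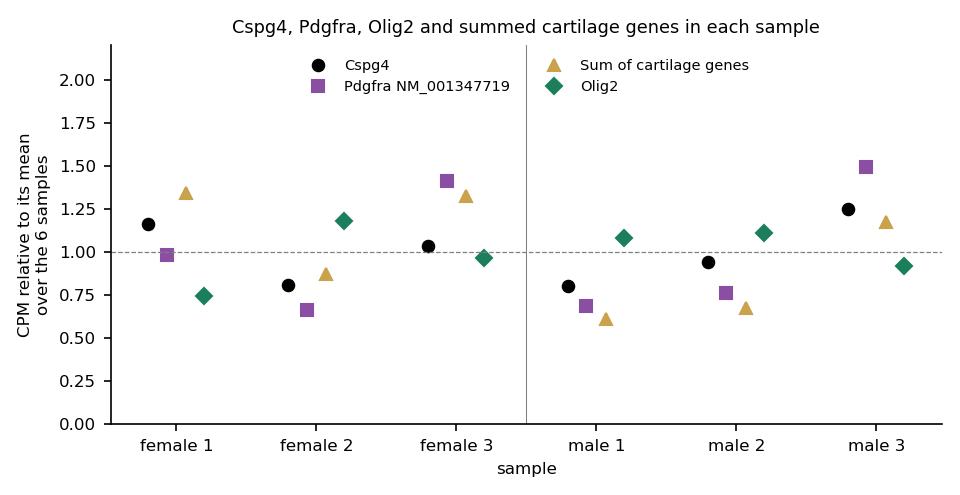
CPM in each of the 6 samples relative to the mean over the 6, for Cspg4, Pdgfra NM_001347719, Olig2 and the sum of the cartilage genes. Cspg4, Pdgfra NM_001347719 and the cartilage sum have their 3 highest values in female 1, female 3 and male 3, and Olig2 in the other samples.

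In the comparison of the sexes, 0 of the 6 tested glial lineage IDs passed an adjusted p of 0.05 (edgeR quasi-likelihood, Benjamini-Hochberg over all 13374 tested IDs), and 0.0299% of those 13374 were called. At an unadjusted p under 0.05 there was 1 of the 6 (Olig1), against 11.5% of all tested IDs. DESeq2 called 0 of the 6 and had 1 at an unadjusted p under 0.05, but gave no adjusted p for 5 of them. The CPM of the sexes did not overlap for 1 of the 6 (Olig1), against 17.1% of all tested IDs, and 8.7% of all tested IDs had every male above every female. The median log2 fold change (male against female) was 0.10 over the 6 and -0.01 over all tested IDs.

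The mean of Olig1 was 16.2 CPM ± 3.20 in the 3 female pools and 24.2 CPM ± 5.17 in the 3 male pools (SD). On the log2 scale males differed by 0.57 (SE 0.21, 95% confidence interval 0.10 to 1.03), a fold of 1.48. With an edgeR adjusted p of 0.376 it was not called, and its unadjusted value was 0.0203 by edgeR. The fold change was positive in all 15 alternatives, from 0.36 after removal of length and GC trends to 0.76 without female sample 3, and was 0.37 without male sample 1. The edgeR adjusted p was 0.138 to 0.809 over those that gave one. Values of other cell types are given beside it, none of them past the edgeR test used here. The summed choroid plexus and ependyma genes, mostly Ttr (421 to 698 CPM over the 6 samples), had 578 to 708 CPM in females and 732 to 917 CPM in males. Hes5, a Notch target of radial glia, had a log2 fold change of 0.77 (SE 0.21, edgeR adjusted p 0.338), the largest of 8 tested radial glia IDs. Of these 8, 6 were above 0 and 2 below, Notch1 (-0.02) and Nes (-0.04). The paper, with DESeq2 and RUVr factors, shows Hes5 as a sex-biased target of a microRNA. The part of these cell types in the Olig1 difference was not tested.

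Olig2, the neighbouring gene, had a log2 fold change of 0.11 (SE 0.21, 95% confidence interval -0.34 to 0.55, edgeR adjusted p 0.869). The ratio of Olig1 to Olig2 per kb was chosen for a look after the Olig1 values had been seen. It was 1.12, 0.687 and 1.18 in female samples and 1.59, 1.06 and 1.37 in male samples. The sexes overlapped in this ratio. The mean log2 ratio was 0.45 higher in males. The exact permutation test of this ratio (two-sided, 20 splits) gave p = 0.3, and since its smallest possible p is 0.1 it bears neither on a difference between the pair nor on its absence.

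Sox10 had a log2 fold change of 0.09 (SE 0.20, 95% confidence interval -0.34 to 0.53, edgeR adjusted p 0.885) and Cspg4 one of -0.0034 (SE 0.17, interval -0.38 to 0.37, adjusted p 0.996). These intervals leave room for differences of up to 1.44-fold and 1.30-fold in favour of males. For the IDs with few counts the intervals were wider, from -1.27 to 1.11 for Pdgfra NM_001347719 around -0.08 (SE 0.55, adjusted p 0.970) and from -1.28 to 2.06 for Gfap around 0.39 (SE 0.77, adjusted p 0.876). The sign changed between alternatives for all 5 of these genes other than Olig1.

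**Figure D5:**
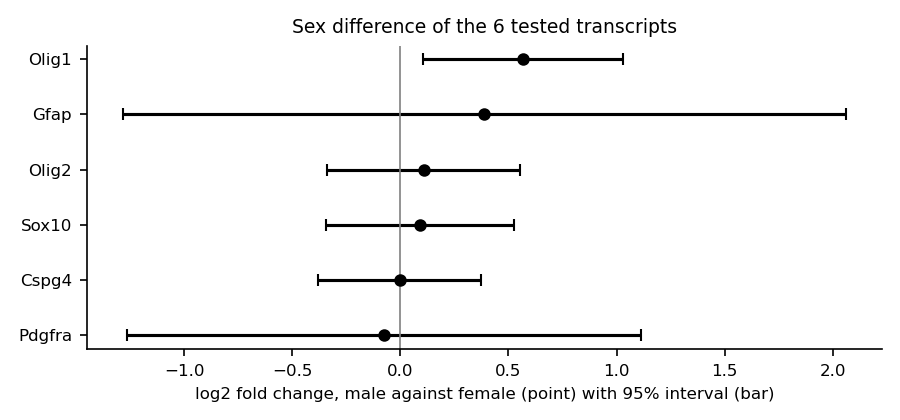
Log2 fold change of each tested glial lineage ID (male against female, points) with its 95% confidence interval (bars), from edgeR. The interval of Olig1 runs from 0.10 to 1.03, and those of the other 5 IDs cross 0 and are widest for Pdgfra and Gfap.

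Lists of related genes were compared in the same fit, and 0 of the 92 tested IDs in 12 lists were called, against 0.0299% of all tested IDs. At an unadjusted p under 0.05 there were 13 of the 92 (14.1%), against 11.5% of all tested IDs, and the lowest edgeR adjusted p was 0.338. In the other precursor genes, 4 of 12 tested IDs were higher in males and 8 lower, with a median log2 fold change of -0.08, which was -0.17 after removal of length and GC trends and -0.15 without female sample 3. Of the 12, 1 had an unadjusted p under 0.05. This was Ptprz1, a receptor phosphatase of precursors and radial glia, at -0.40 (SE 0.17, edgeR adjusted p 0.395). C1ql1, a complement-like ligand of precursors, had 0.11 (SE 0.28), the highest among the precursor IDs averaging 50 counts or more. Myelin genes had a median of 0.04 over 8 IDs, from -0.59 for Myrf, the myelin transcription factor, to 0.24 for Mbp, and that median ran from -0.21 without male sample 1 to 0.16 without male sample 2.

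Other astrocyte genes had a median of -0.05 over 15 IDs, with 4 above 0 and 11 below. That median ran from -0.095 without female sample 3 to -0.022 without female sample 2, and was -0.12 with upper-quartile factors. Slc1a3, a glutamate transporter, had 0.10 (SE 0.13) and Sox9, a transcription factor of glial progenitors that is also the master factor of cartilage, had -0.78 (SE 0.16, edgeR adjusted p 0.338). Sox9 had 154, 137 and 113 CPM in females and 90.0, 61.2 and 82.8 CPM in males, with no overlap, and it was called by DESeq2 (adjusted p 0.00540). For cartilage genes the median was -0.45, with 6 of 7 tested IDs below 0, and it ran from -0.65 without female sample 2 to -0.14 without female sample 1, with -0.15 without male sample 2 and -0.17 without male sample 1. In that list Hapln1, a cartilage link protein, had -1.09 (SE 0.23, edgeR adjusted p 0.338). The part of cartilage in the Sox9 value was not tested. Pdgfa and Pdgfb had 0.08 (SE 0.16) and 0.13 (SE 0.18).

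The remaining lists hold cell types that share some of these genes. The median log2 fold change was 0.32 over 8 radial glia IDs, 6 of them above 0 and 2 below, with Nes the lowest at -0.04 (SE 0.12). Of the 8, 3 had an unadjusted p under 0.05, all 3 higher in males (Hes5, Hes1 and Sox2), where 11.5% of all tested IDs had such a p. The radial glia median was 0.13 without male sample 1. The neuron list had a median of 0.21 over 6 IDs, from -0.07 for Map2 to 0.55 for Dcx (edgeR adjusted p 0.550), and 0.047 with the IDs of a symbol summed or 0.32 without male sample 3. At an unadjusted p under 0.05 there were 2 of the 6, Nefl (0.46) and Tubb3 (0.39). Pericyte IDs had a median of 0.06 over 5, neural crest IDs 0.11 over 4, and fibroblast IDs -0.07 over 13. The pericyte median ran from 0.014 without female sample 1 to 0.21 without female sample 2, the neural crest median from 0.018 without female sample 2 to 0.18 without male sample 3, and the fibroblast median ran from -0.13 without female sample 3 to 0.024 without male sample 2. Choroid plexus and ependyma had 0.38 over 5, and skeletal muscle 0.15 over 7. The choroid plexus median was 0.090 without female sample 1 and 0.16 without male sample 1, and that of skeletal muscle was 0.0092 without female sample 1 and -0.14 after removal of length and GC trends. In each of these lists 0 IDs were called.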

How the data were processed

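RNA of whole brains at E15.5 was sequenced by the study from 6 samples, 3 female and 3 male, grouped by the sex in the labels. According to the methods and processing notes, the authors trimmed reads with Trimmomatic 0.32, aligned them to mm9 with TopHat2 2.1.1, assembled transcripts with Cufflinks 2.2.1 and counted reads with featureCounts 1.5.1. The deposited values are raw counts per RefSeq ID, not normalised, in 1 table per sample. How strand and shared reads were counted is not stated in the sources used here.

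Symbols came from a RefSeq gene table (23359 of 23485 IDs), and position and length from GENCODE on NCBIM37, with the longest transcript of a gene (21516 IDs). IDs that reached 10 counts in 1 or more samples (13374) were compared with edgeR 4.0.16's quasi-likelihood test on TMM-scaled counts, with Benjamini-Hochberg adjustment, called at 0.05. DESeq2 1.42.0, RLE and upper-quartile factors, other count filters, summed IDs, 1 RUVr factor, a replicate block, removal of length and GC trends and leaving out each sample were the alternatives. CPM are given per kb for levels. The test was checked on simulated data, only for fold changes larger than those of the glial genes and in IDs averaging 50 counts or more. That check does not bear on smaller differences, or on Pdgfra and Gfap. R 4.3.3 and Python 3.11.15 were used.

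Members and gene lists were chosen with earlier results of these data known. The text names all member IDs, and of each other list the 3 IDs highest in CPM per kb and those with the largest and the smallest log2 fold change among tested IDs averaging 50 counts or more. It also names every called ID of those lists and the 3 IDs nearest in pattern to Cspg4 and Gfap. Not all IDs that this rule gives are printed, and others were named after their values were seen. P-values measure the spread between pools. The promoter sequences are from RefSeq on GRCm38.p6.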

Additional observations from a re-analysis of the deposited data

How the results depend on the processing

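The count of called glial lineage IDs was 0 in every alternative tried, including those that left out 1 sample. In 2 of these, some of the IDs could not be called. DESeq2 gave no adjusted p for 5 of the 6, Olig1 among them. The filter of 10 or more counts in every sample left Pdgfra and Gfap untested. The count over the related gene lists moved from 0 to 4 without a low-count filter (Sox9, Hapln1, Matn1 and Hes5), to 1 with 1 RUVr factor (Hapln1) and to 2 with DESeq2 (Sox9 and Hapln1). It ran from 0 to 1 over the fits that left out 1 sample, with Sox9 called without male sample 1 and Hapln1 without male sample 3. Over all IDs, 4 were called, against 276 without a low-count filter, 1 with 10 or more counts in every sample, 36 with 1 RUVr factor, 107 with DESeq2 and 4 to 51 without 1 sample (51 without female sample 3). The causes were not tested.

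The sign of the log2 fold change of Cspg4 turned without a low-count filter (0.017), with summed IDs (0.0072) and after removal of length and GC trends (0.053). That removal also turned Olig2 (-0.054), Sox10 (-0.071) and Pdgfra NM_001347719 (0.069). Leaving out 1 sample gave -0.19 to 0.13 for Cspg4, -0.046 to 0.27 for Olig2, -0.068 to 0.29 for Sox10, -0.52 to 0.26 for Pdgfra, -0.053 to 0.75 for Gfap and 0.37 to 0.76 for Olig1. With summed IDs the level of Pdgfra was 0.401 CPM per kb.

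Replicate numbers did not pair the samples, with correlations of -0.29, -0.064 and -0.20 between same-numbered samples. With the number as a replicate block, 4 IDs were called, 0 of them glial, and Olig1 had 0.57 (edgeR adjusted p 0.557).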
